A study of Mus musculus with 12 samples.

Results

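In epithelial cells of the fetal mouse lung, 4304 of the 15019 H3K4me3 regions on chromosomes 1 to 19 were under 4000 bases wide and lay over 1 kb from both ends of every protein-coding gene. They are called members or away regions below. An H3K4me3 region was a stretch covered by peaks of at least 2 of 3 H3K4me3 libraries, so every member was chosen by H3K4me3 itself, and its H3K4me3 values are given as a description. Another 10250 regions under 4000 bases had a protein-coding gene end within 1 kb and are called gene-end regions. The last 465 were 4000 bases or wider, and 66 of those also lay over 1 kb from a gene end. All samples were wild-type C57Bl6 lungs at E17.5 (embryonic day), pooled from several fetuses, from which EpCAM-positive cells were taken and 100000 cells used per reaction. CUT&RUN, in which an antibody brings a nuclease to chromatin so that bound fragments are released and sequenced, was run for H3K4me3 (3 libraries), NKX2-1 (3 libraries), PRDM16 (2 libraries, the first with a rabbit and the second with a sheep antibody) and PRDM3 (1 library). The 3 IgG samples were not analysed here.

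H3K4me3, trimethylation of lysine 4 of histone H3, is laid down around transcription starts, mostly at CpG-rich promoters. Away from the ends of coding genes it is known from alternative promoters inside genes, from promoters of long noncoding RNAs (lncRNAs) and primary microRNA transcripts, and from active tRNA genes, which RNA polymerase III transcribes. Weaker H3K4me3 is also found at some enhancers. NKX2-1 is the homeodomain factor that specifies lung epithelium, and PRDM16 and PRDM3 (the product of Mecom) are related zinc-finger proteins.

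Some of the starts that RefSeq lists within 1 kb of members are shown by the sequence around them. Such a window can lie partly outside its H3K4me3 region, as at Hopx, Airn and Myo1h. The windows run from 250 bases before to 50 bases after the start, in GRCm38.p6, and CpG dinucleotides are in capitals. The first 4 are inner starts of protein-coding genes: of Clic5, a chloride intracellular channel family gene of alveolar type 1 (AT1) cells (chr17:44188322-44188621, plus strand), of the AT1 homeobox gene Hopx (chr5:77095218-77095517, minus strand), of the epithelial ETS factor gene Elf5 (chr2:103423818-103424117, plus strand), and of Ctnnd1, which encodes p120 catenin of adherens junctions (chr2:84650691-84650990, minus strand). The next 3 are lncRNA starts: Gm13648, upstream of the Mir200b cluster (chr4:156059753-156060052, minus strand), Gm32817, next to Mir193b (chr16:13447702-13448001, plus strand), and Airn, the imprinted antisense transcript within Igf2r (chr17:12741061-12741360, plus strand). Myo1h, an inner start among the members with the highest factor peaks, is shown for its few CpG (chr5:114356565-114356864, plus strand).
Clic5: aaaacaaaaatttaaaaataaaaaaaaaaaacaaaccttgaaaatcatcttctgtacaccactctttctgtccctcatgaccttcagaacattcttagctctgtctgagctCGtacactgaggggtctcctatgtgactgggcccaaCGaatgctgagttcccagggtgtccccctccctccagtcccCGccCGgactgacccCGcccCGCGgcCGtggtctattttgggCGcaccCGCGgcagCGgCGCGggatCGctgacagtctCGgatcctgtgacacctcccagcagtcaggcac
Hopx: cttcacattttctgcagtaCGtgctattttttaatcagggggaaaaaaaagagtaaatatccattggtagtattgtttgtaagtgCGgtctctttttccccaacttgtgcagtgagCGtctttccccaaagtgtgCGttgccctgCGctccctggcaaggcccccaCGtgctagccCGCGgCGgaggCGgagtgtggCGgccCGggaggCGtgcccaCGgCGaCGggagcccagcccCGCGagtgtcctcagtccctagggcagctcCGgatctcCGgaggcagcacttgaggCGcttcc
Elf5: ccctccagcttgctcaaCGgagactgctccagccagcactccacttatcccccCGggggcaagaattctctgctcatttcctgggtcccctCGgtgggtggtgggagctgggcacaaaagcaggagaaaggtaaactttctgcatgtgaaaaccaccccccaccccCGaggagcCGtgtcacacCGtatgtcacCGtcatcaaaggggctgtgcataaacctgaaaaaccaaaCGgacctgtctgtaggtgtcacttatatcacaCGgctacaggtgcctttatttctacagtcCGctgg
Ctnnd1: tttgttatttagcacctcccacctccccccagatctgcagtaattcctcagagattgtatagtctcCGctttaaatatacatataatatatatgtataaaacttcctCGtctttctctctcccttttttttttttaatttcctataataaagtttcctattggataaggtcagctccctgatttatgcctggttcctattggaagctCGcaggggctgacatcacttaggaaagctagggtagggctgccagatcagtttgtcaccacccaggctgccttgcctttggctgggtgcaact
Gm13648: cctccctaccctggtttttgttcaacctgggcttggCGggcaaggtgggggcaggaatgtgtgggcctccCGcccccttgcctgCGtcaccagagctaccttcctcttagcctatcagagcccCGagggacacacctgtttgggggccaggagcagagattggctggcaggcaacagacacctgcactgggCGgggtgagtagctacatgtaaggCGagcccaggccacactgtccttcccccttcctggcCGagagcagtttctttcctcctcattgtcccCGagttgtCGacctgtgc
Gm32817: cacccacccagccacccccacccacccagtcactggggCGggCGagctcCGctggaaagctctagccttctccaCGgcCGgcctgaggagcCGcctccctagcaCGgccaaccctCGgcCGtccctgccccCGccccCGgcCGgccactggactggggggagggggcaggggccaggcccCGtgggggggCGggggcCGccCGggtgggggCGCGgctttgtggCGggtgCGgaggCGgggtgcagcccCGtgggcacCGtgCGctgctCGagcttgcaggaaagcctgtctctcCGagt
Airn: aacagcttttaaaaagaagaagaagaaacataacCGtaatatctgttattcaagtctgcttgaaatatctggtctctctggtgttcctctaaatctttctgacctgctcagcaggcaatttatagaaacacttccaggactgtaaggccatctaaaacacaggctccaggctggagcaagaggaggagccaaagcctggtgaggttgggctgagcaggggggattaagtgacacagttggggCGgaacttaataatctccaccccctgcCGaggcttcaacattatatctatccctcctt
Myo1h: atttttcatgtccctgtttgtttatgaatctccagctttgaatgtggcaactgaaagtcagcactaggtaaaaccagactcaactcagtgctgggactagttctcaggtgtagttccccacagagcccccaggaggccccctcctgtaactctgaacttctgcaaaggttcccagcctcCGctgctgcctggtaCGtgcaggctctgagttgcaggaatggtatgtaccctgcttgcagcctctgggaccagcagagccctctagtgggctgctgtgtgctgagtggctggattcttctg
The windows ranged from CpG-rich to CpG-poor. Gm32817 held 26 CpG and Hopx 21, against 16 for Clic5, 10 for Elf5 and 9 for Gm13648, while Ctnnd1 and Airn held 3 each and Myo1h held 2. Over all 1204 coding starts within 1 kb of an away region (and not of a gene-end region) the median was 19 CpG per window (quartiles 11 and 29), close to the 22 (15 and 30) of the 9987 coding starts at gene-end regions. The 606 lncRNA starts at away regions had a median of 12 (6 and 22). Coding starts with no H3K4me3 region within 1 kb had a median of 3 (1 and 7, 8366 starts). Starts are not independent, since several can belong to 1 gene and their windows can overlap. An observed-to-expected CpG ratio over 0.6 was found for 64.7% of coding starts at away regions, 45.0% of lncRNA starts there, 78.7% of coding starts at gene-end regions and 9.18% of coding starts without the mark.

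**Figure D1:**
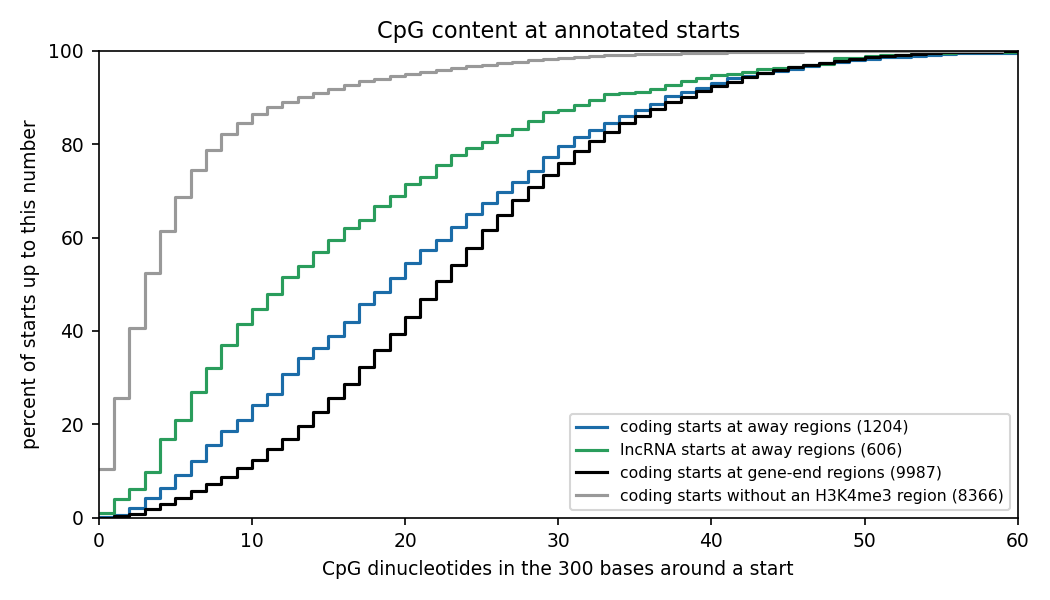
Cumulative percent of annotated starts (y axis) by the number of CpG dinucleotides in the 300 bases around each start (x axis), for coding and lncRNA starts within 1 kb of an away region, coding starts at gene-end regions and coding starts with no H3K4me3 region within 1 kb. The medians are 19, 12, 22 and 3 CpG.

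Motifs were searched one by one, so that 2 motifs may share bases in a window. GGGCGG (either strand), the core of SP-family sites, was in 63.0% of coding windows and 45.2% of lncRNA windows at away regions, in 69.3% of coding windows at gene-end regions and in 16.7% of unmarked coding windows; all listed windows held it in 35.9%. CCGGAAG (either strand), an ETS-type core, was in 12.3% of coding windows at away regions, 19.9% at gene-end regions and 9.0% of all windows. CCAAT (either strand), a site of the NF-Y complex, was less frequent in coding windows at away regions (32.7%) than in all windows (37.3%). TATAAA on the strand as printed, 40 to 16 bases before the start, was in 0.664% of coding windows at away regions, against 4.73% of unmarked coding windows and 2.02% of all. CAAGTG (either strand), a core of NK2-family homeodomain sites, was in 12.03% of the 1155 windows at away regions over an NKX2-1 region and in 13.7% of the 655 windows at away regions without one, beside 13.5% of all windows.

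MicroRNA genes near members are shown by their mature strands from RefSeq, with the seed (bases 2 to 8) in capitals. miR-200b-3p and miR-429-3p share a seed, and miR-200a-3p of the same cluster has another. The strands of the Mir17 cluster follow, and then those of Mir30a, Mir193b, Mir148a and Mir210.
miR-200b-3p: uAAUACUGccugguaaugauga
miR-429-3p: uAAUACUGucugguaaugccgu
miR-200a-3p: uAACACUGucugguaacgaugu
miR-17-5p: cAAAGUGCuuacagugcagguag
miR-18a-5p: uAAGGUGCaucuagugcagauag
miR-30a-5p: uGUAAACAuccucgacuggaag
miR-193b-3p: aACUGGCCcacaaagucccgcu
miR-148a-3p: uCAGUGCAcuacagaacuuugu
miR-210-3p: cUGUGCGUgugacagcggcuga
The miR-200 microRNAs repress Zeb1 and Zeb2 and thereby hold cells in an epithelial state, and the Mir17 cluster is known for promoting proliferation. The Mir200b hairpin lay 404 bases from its region and is a match within 1 kb, whereas Mir200a (1169 bases) and Mir429 (2167 bases) lay farther off on the same side. Mir30a, Mir148a and Mir210 lay inside their regions.

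Peak lists give no read depth. They held 14146 to 18538 H3K4me3 peaks and 51128 to 108677 factor peaks on these chromosomes. H3K4me3 replicate 3 had no peak at 18.6% of the members, against 4.30% for replicate 1 and 4.46% for replicate 2. The labels do not say whether replicates came from separate pools of lungs, so a p given below reflects no more than how these libraries varied. H3K4me3 lay within 1 kb of an end of 7 of 7 epithelial marker genes, 2 of 5 mesenchymal (Col1a1 and Col1a2), 1 of 5 endothelial (Kdr), 1 of 5 immune (Spi1) and 0 of 3 neuronal ones; what part other cells had in the members was not tested.

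By what RefSeq lists nearby, the members fell into 4 groups that add up to all 4304. The first 1032 (24.0%) had a start of a protein-coding gene within 1 kb, although no gene end, and are inner starts. A further 696 (16.2%) had an end or start of a noncoding gene within 1 kb. Of the remaining regions without any listed start, 1455 (33.8%) were inside a protein-coding gene and 1121 (26.0%) outside. Taken without this order of precedence, 2664 members had their midpoint inside a protein-coding gene, which is 61.9% (Wilson 95% interval 60.4 to 63.3) beside 39.8% of the 2367 Mb that lie over 1 kb from a coding gene end. A noncoding gene end lay within 1 kb of 831 members, or 19.3% (18.2 to 20.5). Counted from midpoints, so as to compare with sequence, it was 16.7% of members and 2.14% of the eligible sequence. A listed start of any kind was within 1 kb of 32.9% (31.6 to 34.4) of members and, from midpoints, of 30.6%, beside 1.05% of the sequence. The list of starts covers 16456 of 20661 coding genes and 9291 of 12408 lncRNA genes, and none on chromosome 18, so "no listed start" does not mean that no transcript starts there.

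Inner starts were the widest and most strongly marked group. Their median width was 1432 bases (quartiles 878 and 2019), against 906 (500 and 1565) at noncoding genes, 574 (304 and 1104) inside genes without a listed start and 557 (324 and 913) outside genes. Over all members it was 775 (383 and 1432) and at gene-end regions 1595 (1119 and 2173). Median H3K4me3 fold enrichment, the ratio of peak signal to background that the authors' peak caller wrote for each peak, was 16.7, 28.5 and 25.4 in replicates 1, 2 and 3 at inner starts with a peak. At noncoding genes it was 11.7, 14.3 and 13.7, inside genes without a start 9.91, 10.3 and 10.3, and outside genes 9.28, 9.73 and 9.62; gene-end regions had 18.7, 36.5 and 30.8. All 3 libraries had a peak at 89.8% of inner starts, 80.7% of noncoding members, 61.0% and 67.0% of those without a listed start (inside and outside genes), and 95% of gene-end regions. Where a single start lay within 1 kb, the region's midpoint was downstream of it in 80.3% of 1087 members, by a median of 268 bases over all 1087. At gene-end regions with a single start it was downstream in 87.5% of 5662, by a median of 300 bases. Where an inner start is close to its gene's outer end, the rule for members keeps them from lying far upstream of it, so the 2 values are not fully alike.

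**Figure D2:**
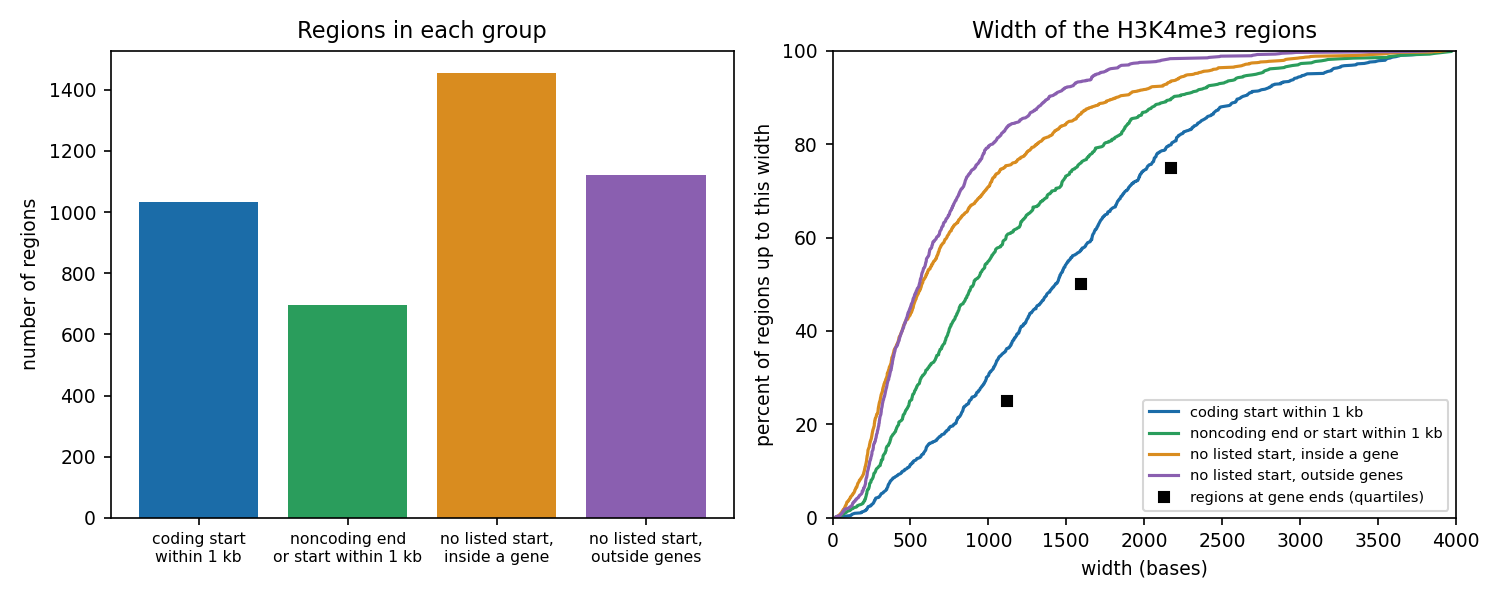
Left, number of away regions in each of 4 groups by the start or gene end RefSeq lists within 1 kb (1032, 696, 1455 and 1121); right, cumulative percent of regions by width in bases for the same groups, with black squares for the quartiles of the 10250 gene-end regions. The curves reach 50% at median widths of 1432, 906, 574 and 557 bases.

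Members were not all separate peaks. Counted by the highest peak touching each region, 367 of 4304 shared a peak with another member in some H3K4me3 library. In the same way 230 shared one with a region at a gene end. Sharing of lower peaks was not counted, so both are least numbers. A fold enrichment given for a shared stretch belongs to the whole peak. The peak's summit lay inside the stretch in 87.2%, 92.4% and 97.4% of members with a peak in replicates 1, 2 and 3. The median distance to the nearest H3K4me3 region at a gene end was 30581 bases, and 10.6% of members lay within 2 kb of one. The median distance to a coding gene end was 9793 bases (quartiles 3435 and 30030).

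Factor peaks were frequent at members but, over all widths, more so at gene ends. Gene-end regions were also wider (median 1595 against 775 bases), and the difference did not hold in every width class, as given below. NKX2-1 regions (covered in at least 2 of 3 libraries) overlapped 49.4% of members (Wilson 95% interval 47.9 to 50.9), against 75.3% of gene-end regions and 68.7% of all H3K4me3 regions. For PRDM16 (both libraries) the shares were 65.1% (63.7 to 66.6), 78.9% and 75.6%, and for PRDM3 (1 library) 60.8% (59.4 to 62.3), 76.4% and 72.7%. All 3 factors overlapped 1575 members, which is 36.6% (35.2 to 38.0), against 58.6% and 53.5%. A peak in all 6 factor libraries was found at 22.2% of members and 44.1% of gene-end regions, beside 39.4% of all. In no factor library was there a peak at 286 members, 6.64%, and at 1.75% of gene-end regions, beside 3.10% of all. These shares rest on lists that reach low confidence: with factor peaks of −log10 q at least 5, 3.53% of members were over NKX2-1, 23.8% over PRDM16, 14.3% over PRDM3 and 1.60% over all 3. Without NKX2-1 replicate 1, so that an NKX2-1 region needed both other libraries, 22.7% were over NKX2-1 and 18.7% over all 3.

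The 1032 inner-start members lay within 1 kb of inner starts of 961 protein-coding genes. In 592 of these (61.6%) the gene's outer 5′ end, as RefSeq gives it, had no H3K4me3 region within 1 kb. There the inner start was a median of 4775 bases from the outer end. Some of these starts were close to the outer end, at 112 bases in Angptl6 and 340 in Prkar1a, so the mark need not belong to the inner start. In the other 369 genes the inner start and the outer end both had a region within 1 kb, with a median distance of 14201 bases between them. The rule for members bears on this split. A mark that reaches from the outer end over a near inner start lies within 1 kb of a gene end and is no member. The share of 61.6% and both median distances therefore depend on that rule.

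Clic5, Elf5 and Ctnnd1 were among the genes without an H3K4me3 region within 1 kb of the outer end. Clic5 had a narrow member just beyond that distance, 1138 bases from the outer end (chr17:44135900-44136315; 7.14 and 5.47, no peak in replicate 3). The inner Clic5 region (chr17:44187813-44190845) began 53051 bases inside the gene, with H3K4me3 fold enrichment of 19.7, 58.4 and 52.9 in replicates 1 to 3. All 6 factor libraries had a peak there, with NKX2-1 at 5.76, 3.26 and 4.00, PRDM16 at 4.85 and 4.12 and PRDM3 at 5.12. At Elf5 (chr2:103423749-103427311) the mark covered 3563 bases, with values of 20.9, 48.7 and 41.9 and again 6 of 6 factor libraries, between 2.19 and 7.17. Ctnnd1 (chr2:84647579-84651336) had 28.0, 93.2 and 73.4 over 3758 bases around a start 8237 bases from the outer end, and factor peaks of 2.34 to 7.76 in all 6. Its printed window holds 3 CpG, as few as that of Airn.

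Hopx, Rreb1 and Foxp1 carried the mark at the outer end as well. Hopx had its inner region (chr5:77092189-77095449) at a start 19856 bases from the outer end, with H3K4me3 of 20.3, 44.1 and 35.6 and 6 of 6 factor libraries (2.40 to 9.47). The noncoding gene LOC115490297 has an end 358 bases from this region, and which of the genes the mark belongs to cannot be told apart. The zinc-finger gene Rreb1 had an inner region of 3413 bases (chr13:37825196-37828608) with 18.0, 65.7 and 46.0, and a factor peak in 5 of 6 libraries, NKX2-1 replicate 2 being the one without. Foxp1, a forkhead repressor of lung epithelium, held 4 members. The one at chr6:99026780-99029131 (2352 bases) had 16.4, 36.3 and 33.1, and another stretch of 4018 bases fell just over the width limit.

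By mean rank of H3K4me3 over the 3 libraries, the 8 highest members inside genes without a noncoding end lay in Agap3, Atxn7, Golga7, Wdr20, Ldb1, Cyhr1, Sema4c and Exph5. Atxn7, Wdr20, Ldb1 and Sema4c were inner starts. Ldb1, which encodes a LIM-domain cofactor, had 28.7, 100.3 and 72.8 over 3041 bases; Atxn7, of the SAGA complex, had 35.0, 81.5 and 61.1, with NKX2-1 replicate 1 at 22.1 and PRDM16 replicate 1 at 14.9. Agap3 (3645 bases; 34.4, 90.01 and 69.4) and Exph5 (3224 bases; 30.2, 77.8 and 59.1), an effector of Rab27, had their nearest listed start 20587 and 38606 bases away. Every one of these 8 had a peak in all 6 factor libraries, beside 22.2% of all members and 39.4% of all H3K4me3 regions. Wide members were more often over factor regions, with 83.4% of the 506 members of 2000 bases or more over all 3 factors.

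Among noncoding genes, lncRNAs were the nearest in 666 of the 831 members, tRNA genes in 77, snRNA genes in 34 and microRNA genes in 32. The share of annotated genes with an away region within 1 kb was 39.4% of 391 tRNA genes (154), 5.59% of 12408 lncRNA genes (693), 4.19% of 931 snRNA genes (39), 3.79% of 1136 microRNA genes (43) and 1.71% of 1286 snoRNA genes (22), beside 5.91% of all 16359 noncoding genes. Marks at noncoding genes within 1 kb of a coding gene end are not members.

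Of the 8 noncoding members highest in H3K4me3, A630026N12Rik, A630072M18Rik, A830035O19Rik, 4930405A21Rik and Gm15952 also had a coding start within 1 kb, in Gabpb1, Rsbn1l, Sidt2, Dlgap4 and Dcun1d1. Which of the paired starts carried the mark cannot be told apart at this resolution. The other 3 were Gm12925 inside Macf1, Gm32817 and Tbrg3 inside Tcf20. Gm32817 (chr16:13446773-13448956) had 37.9, 73.0 and 53.6 and lay 189023 bases from any H3K4me3 region at a gene end. All 6 factor libraries had a peak at each of the 8, beside 22.2% of all members and 39.4% of all H3K4me3 regions.

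Housekeeping and snoRNA-host noncoding genes had a member at 13 of 27, beside 5.91% of all noncoding genes: Snhg3, Snhg5, Snhg7, Snhg12, Snhg15, Snhg16, Snhg17, Snhg20, Neat1, Dancr, Terc, Oip5os1 and Pvt1. Dancr, a snoRNA host, had 21.0, 69.9 and 50.8 over 2482 bases, and factor peaks in 5 of 6 libraries (2.43 to 5.97). Terc, the telomerase RNA gene, had 15.7, 43.2 and 26.8 over 847 bases but a single factor peak, of 2.28 in PRDM16 replicate 2. Terc was thus marked above the members' median fold in all 3 H3K4me3 libraries with a factor peak in 1 of 6 libraries.

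Imprinted noncoding genes had a member at 5 of 8 (H19, Meg3, Kcnq1ot1, Airn and Peg13), beside the same 5.91%. These transcripts start from one parental allele, which peak lists do not resolve. Kcnq1ot1, inside Kcnq1, had 22.1, 31.9 and 27.7 over 3342 bases (chr7:143293262-143296603). Airn, inside Igf2r, had 17.9, 29.8 and 18.0 over 1856 bases. Peg13 was the lowest at 9.01, 11.6 and 13.7. Each of the 5 had peaks in 4 to 6 of the factor libraries.

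Epithelial and proliferation microRNA genes had a member within 1 kb at 6 of 44 (Mir200b, Mir17, Mir18, Mir375, Mir30a and Mir193b), and microRNA genes of other cell types at 0 of 19, beside 3.79% of all microRNA genes. Like the other gene lists, these were chosen with earlier results of these data known, and a difference between their counts was not tested. The Mir200b member covered 3936 bases (chr4:156056154-156060089), including the Gm13648 start printed above. H3K4me3 there was 22.7, 93.7 and 74.2, with NKX2-1 at 8.54, 4.07 and 5.59, PRDM16 at 5.69 and 7.41 and PRDM3 at 5.96. The Mir17 member (chr14:115040026-115042886), which is also the one near Mir18, had 22.6, 63.2 and 24.2, and 10.1, 3.64 and 7.19 for NKX2-1. Mir375 and Mir30a stood lower, with 6.78, 9.73 and 8.93 over 450 bases and 7.01, 6.69 and 7.56 over 838 bases. Factor peaks were present there in 4 and 3 of the 6 libraries. Outside the list, Mir148a (chr6:51269593-51271458) had 18.1, 46.3 and 26.1 and Mir210, which hypoxia induces, 21.4, 32.8 and 20.6, both with peaks in 6 of 6 factor libraries. Lung and endoderm noncoding genes had a member at 3 of 15 (Mir205hg, Mir22hg and Pantr2), beside 5.91% of all noncoding genes, and Mir22hg was the highest at 24.9, 35.5 and 35.3.

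**Figure D3:**
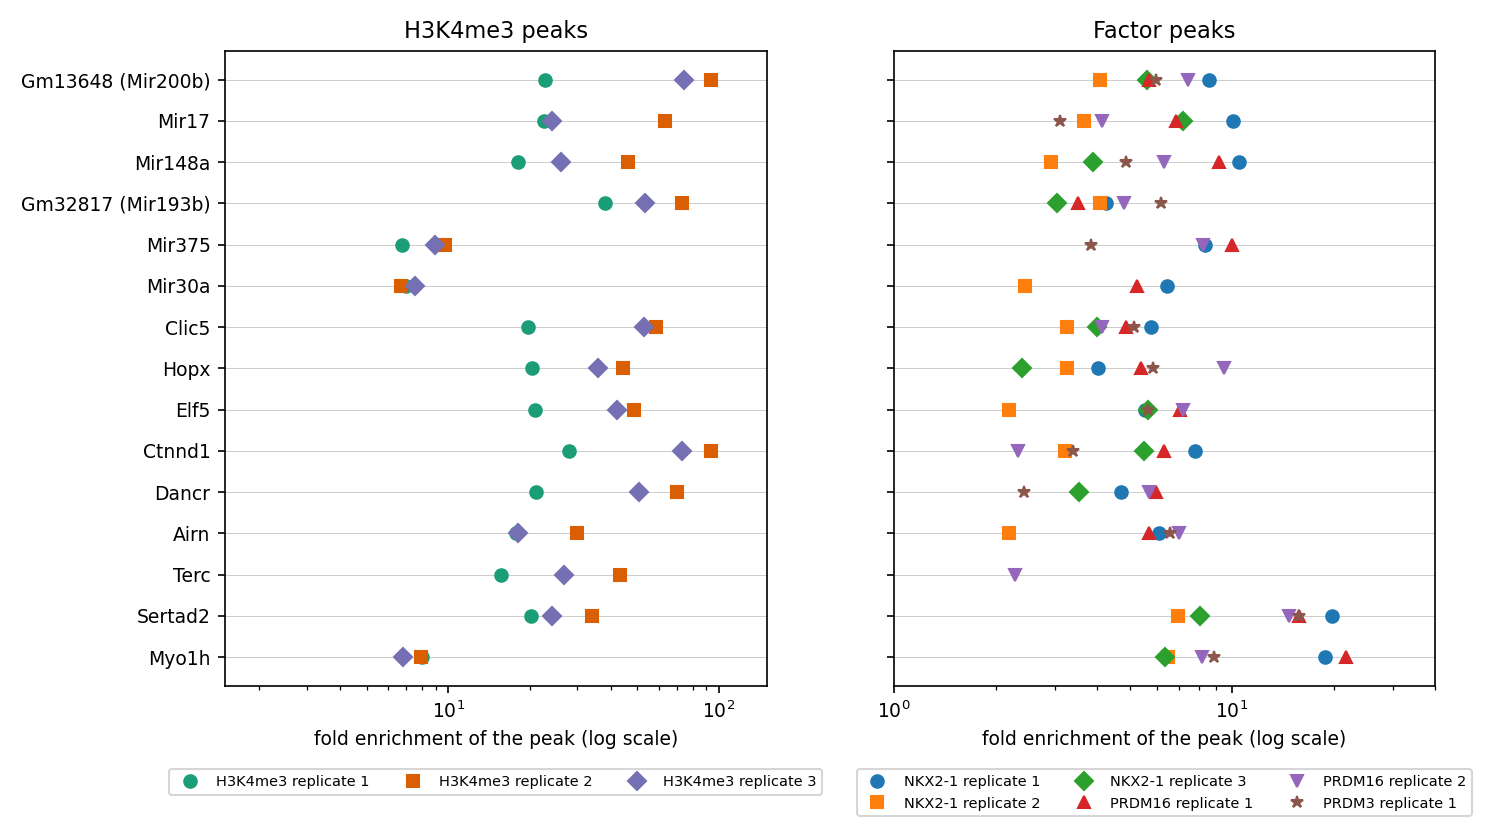
Fold enrichment (log axes) of the H3K4me3 peaks (left, 3 libraries) and factor peaks (right, 6 libraries) at 15 named members; a library without a peak has no point. Terc has 1 factor point beside H3K4me3 of 15.7 to 43.2, and Myo1h has 6 factor points of 6.35 to 21.8 beside H3K4me3 of 6.80 to 8.03.

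The 154 tRNA genes lay within 1 kb of 91 members, with up to 5 genes at 1 region, and carried all 20 of the isotype letters in their symbols. Of the 91 regions 33 were on chromosome 13, where 56 of 105 annotated tRNA genes had a member. The tRNA regions were wide, with a median of 1521 bases, and their median H3K4me3 was 15.1, 24.9 and 20.6. NKX2-1 regions overlapped 63.7% of them, PRDM16 regions 68.1%, PRDM3 regions 76.9% and regions of all 3 factors 50.5%. These shares lie above those of all members (49.4%, 65.1%, 60.8% and 36.6%) but, except for PRDM3, below those of all H3K4me3 regions (68.7%, 75.6%, 72.7% and 53.5%). Those at n-TMcat14 (22.9, 63.9 and 53.6 over 3599 bases) and n-THgtg4 (24.0, 56.5 and 56.7 over 3973 bases) had peaks in all 6 factor libraries, whereas n-TTagt6 (32.1, 43.8 and 39.2) had them in 4. Many tRNA genes have near-identical copies, so which copy a peak belongs to is uncertain. The same holds for the U3 snoRNA genes Rnu3b1, Rnu3b2, Rnu3b3 and Rnu3b4 inside Tex14. Each had a member, of 206 to 546 bases, with H3K4me3 no higher than 11.0 and peaks in 5 or 6 factor libraries, up to 12.1 for NKX2-1 replicate 1 at Rnu3b3.

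Inside genes without a listed start there were 1455 members, and for 1002 of them the gene has a start listed elsewhere. Besides Agap3, Golga7, Cyhr1 and Exph5, the highest were in Rara, the retinoic acid receptor alpha gene (34.6, 60.8 and 62.5 over 2999 bases), and Rere (33.8, 68.1 and 52.9 over 2902 bases). Protein-coding genes holding a member numbered 2140, or 10.4% of 20661. They had a median span of 50006 bases, against 17491 for all. At least 2 members were in 439 genes, at least 3 in 108 and at least 4 in 33. Pde4d, a cAMP phosphodiesterase, held the most, 8, with H3K4me3 of up to 32.8 at chr13:109260129-109262180. Rere held 6, of which 3 were pieces of 1 peak of replicate 2 (25.5). Chd9, a chromatin remodeller gene, held 5, and the one at chr8:90907422-90909685 (17.6, 79.7 and 52.9) had PRDM16 replicate 1 at 22.6 and peaks in 6 of 6 factor libraries. Etl4 also held 5, including an inner start at chr2:20519231-20521724 (13.4, 51.7 and 44.0).

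Outside coding genes without a listed start, the 1121 members included the pair with the highest values of H3K4me3 replicates 2 and 3 among those named. These lay on chromosome 8 at chr8:19784340-19785886 (37.2, 165.4 and 140.6) and chr8:20121802-20123477 (40.5, 140.1 and 113.1). Another of the 8 highest lay in the same stretch of chromosome 8, at chr8:20423434-20425179 (28.5, 52.7 and 63.2). All of these had a peak in all 6 factor libraries, beside 22.2% of all members and 39.4% of all H3K4me3 regions. Peak lists do not show whether reads in this stretch of chromosome 8 map uniquely, and this was not tested. The other 5 lay 6201 bases from Nanos3, 59540 from Ccdc54, 45317 from Cdk1, 2464 from Bcl9l and 588072 from F2rl3. The region near Bcl9l (chr9:44477562-44480274) had the highest replicate 1 values of the 8, 21.1 for NKX2-1 and 30.3 for PRDM16, with 25.5, 69.3 and 63.9 for H3K4me3. It ended 2173 bases from an H3K4me3 region at a gene end and 1047 bases from Gm22540.

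Genes of alveolar cells were set beside 10.4% of all coding genes holding a member. AT1 genes held one in 6 of 20 (Hopx, Aqp5, Akap5, Clic5, Lmo7 and Ahnak) and alveolar type 2 (AT2) genes in 6 of 19 (Sftpb, Abca3, Lamp3, Napsa, Lpcat1 and Scd1). The lists' genes are not of the same length, with median spans of 30549 and 12987 bases, against 17491 for all coding genes. The 9 members in AT1 genes included 2 at inner starts, those of Hopx and Clic5, and 4 of the 9 lay within 4000 bases of a gene-end H3K4me3 region. All 10 members in AT2 genes lay 110 to 3452 bases from one, none was at a listed inner start, and their median width was 309 bases. In 7 of these 10 no factor library had a peak, and in 2 of the 9 in AT1 genes, beside 6.64% of all members and 3.10% of all H3K4me3 regions.

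Sftpb, which encodes surfactant protein B, had the widest of them (1321 bases; 9.91, 13.4 and 21.3), 303 bases from a gene-end region. Abca3, the lamellar body lipid transporter, had 2. The first, of 129 bases, had 6.22 and 68.1 in replicates 1 and 2 and no peak in replicate 3, but lay 497 bases from a gene-end region, and the replicate 2 value is that of a peak reaching in from there. The second, 3452 bases from one (306 bases; 5.05 and 4.87, no peak in replicate 3), had peaks in 5 of 6 factor libraries, between 4.00 and 5.90.

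Transcription factor genes of lung epithelium held a member in 8 of 26 (Foxp1, Foxp2, Nfia, Nfib, Grhl2, Elf5, Mecom and Rreb1), beside 10.4% of all coding genes. Their median span was 47777 bases, against 17491 for all coding genes. Of their 24 members 22 lay over 4000 bases from a gene-end H3K4me3 region, 4 were at inner starts, beside 24.0% of all members, and 10 were over regions of all 3 factors, beside 36.6% of all members and 53.5% of all H3K4me3 regions. Nfia, a nuclear factor I gene, held 5, the highest at chr4:97756832-97758965 (25.3, 51.7 and 33.7; 6 of 6 factor libraries), 623443 bases from the nearest H3K4me3 region at a gene end. Mecom, the gene of PRDM3, held 6, of which 2 were within 1 kb of the antisense gene Mecomos. Its widest (chr3:30504022-30505208, 1187 bases) was 252 bases from a gene-end region, with H3K4me3 of 32.3, 10.7 and 6.98 and factor peaks in 6 of 6 libraries, of which PRDM16 replicate 1 (18.3) was the highest value in that library among these 24. The Elf5, Rreb1 and Foxp1 members are described above.

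Genes listed for known alternative inner promoters held a member in 23 of 37, beside 10.4% of all coding genes. Their median span was 172549 bases, against 17491 for all coding genes. They gave 66 members, 10 of them at a listed coding start, beside 24.0% of all members, and 28 over regions of all 3 factors, beside 36.6% of all members and 53.5% of all H3K4me3 regions. The list of starts is incomplete, so members at starts missing from it are not among the 10. Dab2ip held 5, of which 3 were at inner starts, the highest of those with 22.3, 31.3 and 29.5 over 2945 bases. Plec, which encodes the cytolinker plectin, held 3, with H3K4me3 of 15.1 to 26.8 in the 3 libraries and no start listed for the gene nearby. Nr3c1, the glucocorticoid receptor gene, had 26.5, 40.8 and 50.0 at its wider region (3631 bases). Tpm1, which encodes a tropomyosin, had 24.96, 36.1 and 31.3 over 3846 bases, with PRDM16 replicate 1 at 23.6 and no peak in NKX2-1 replicate 2. Among mesenchymal, endothelial, immune and neuronal genes 1 of 32 held a member (Pdgfra, 2 regions). Among housekeeping genes it was 2 of 18 (Ywhaz and Eef1a1), and among all coding genes 10.4%.

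Inner starts were most often over all 3 factors (49.7%), followed by noncoding members (41.1%) and members without a listed start inside genes (30.5%) and outside (29.6%). Per library the members had a peak in 77.7%, 37.7% and 45.4% (NKX2-1 replicates 1 to 3), 81.7% and 73.5% (PRDM16) and 60.8% (PRDM3). Gene-end regions had 91.0%, 61.0%, 71.8%, 92.3%, 84.4% and 76.4% in the same order.

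**Figure D4:**
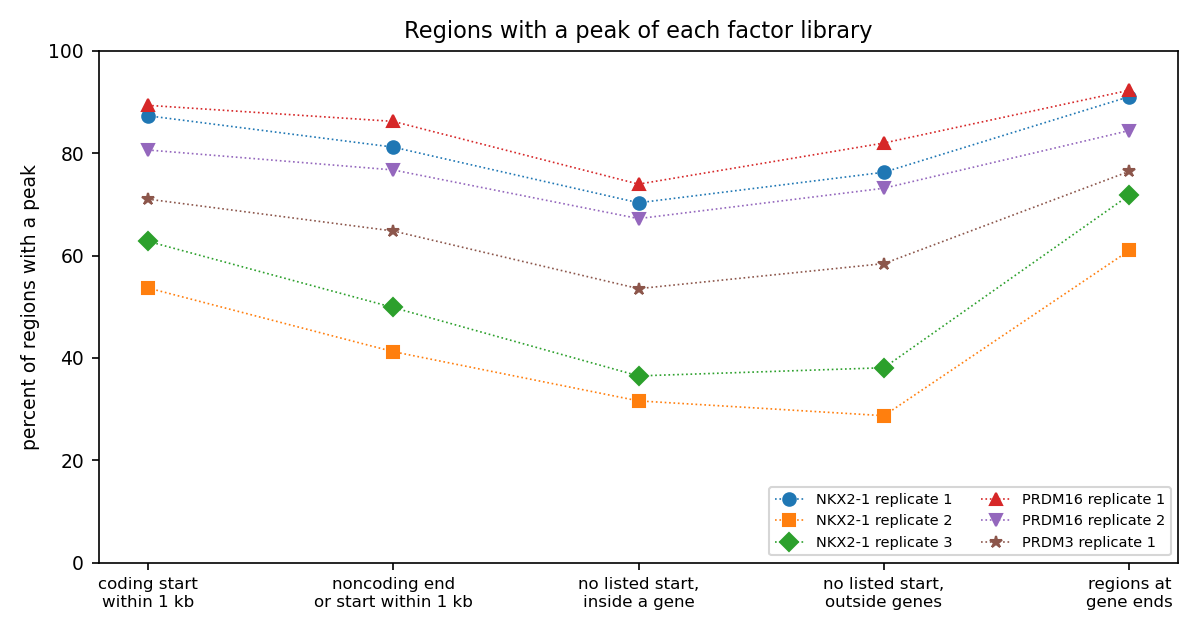
Percent of regions with a peak (y axis) in each of the 6 factor libraries, for the 4 groups of away regions and for gene-end regions; dotted lines join the values of 1 library. Every library has its highest share at gene-end regions, and inner starts are the highest of the 4 groups in every library.

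The share with a factor peak was lower at members than at gene-end regions in 6 of 6 libraries, with differences of -26.4 to -10.6 percentage points. The mean difference was -16.7 ± 6.66 percentage points (SD, n = 6; two-sided exact sign-flip permutation test over libraries, p = 0.03125, the smallest it can give; 0.0469 after Benjamini-Hochberg adjustment over 3 comparisons). The peak names carry a C tag in 4 factor libraries and an H tag in NKX2-1 replicates 2 and 3, with no statement of what the tags stand for. The C libraries gave -12.6 (n = 4) and the H libraries -24.9 (n = 2), too few in each for a p under 0.05. Among 4 width classes the difference held in 1. Under 500 bases it was reversed at 6.71 percentage points more for members (higher in 6 of 6 libraries, exact permutation p = 0.03125), from 500 to under 1000 bases it was 0.409 (p = 0.8125 by the same exact test), from 1000 to under 2000 bases -4.77 (exact p = 0.03125) and from 2000 bases up -1.53 (exact p = 0.125).

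Members with a listed start or a noncoding gene end within 1 kb had factor peaks more often than the rest in 6 of 6 libraries. This comparison was added after seeing the data. The mean was 71.1% of 1728 regions against 57.2% of 2576, a difference of 13.9 ± 4.45 percentage points (SD, n = 6; two-sided exact sign-flip permutation test, p = 0.03125; 0.0417 adjusted over 4 comparisons). For a noncoding gene end alone it was 7.15 ± 1.41 (68.6% of 831 against 61.4% of 3473, higher in 6 of 6; exact permutation p = 0.03125, adjusted 0.0469). Members with a listed start were also wider, and neither difference held in every width class, a division made after seeing the data. The first difference was -1.97 under 500 bases, 0.749 from there to 1000, 5.77 from there to 2000 and 0.530 above, and the second 1.79, -0.383, 2.41 and 0.389. Among these classes, both had p = 0.03125 only from 1000 to under 2000 bases, by the exact permutation test.

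Between members inside and outside coding genes no difference in factor peaks passed the test, and the direction depended on the choices made. The mean difference was 1.64 ± 4.46 percentage points (63.4% against 61.8%, n = 6; exact permutation p = 0.469). NKX2-1 replicates 2 and 3 had 8.12 and 6.22 percentage points more inside genes, and the other 4 libraries lay between -2.84 and 0.450. Under 5 alternatives it was positive with an exact permutation p of 0.03125: without H3K4me3 replicate 1 (3.76), with no coding end within 5 kb (4.61), with stretches within 500 bases joined (5.21), over 2 kb from a gene-end H3K4me3 region (5.55) and with distances from midpoints (7.04). In all 4 width classes, compared after seeing the data, it was negative, at -9.66 under 500 bases (exact permutation p = 0.03125), -2.96, -0.895 and -0.189.

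**Figure D5:**
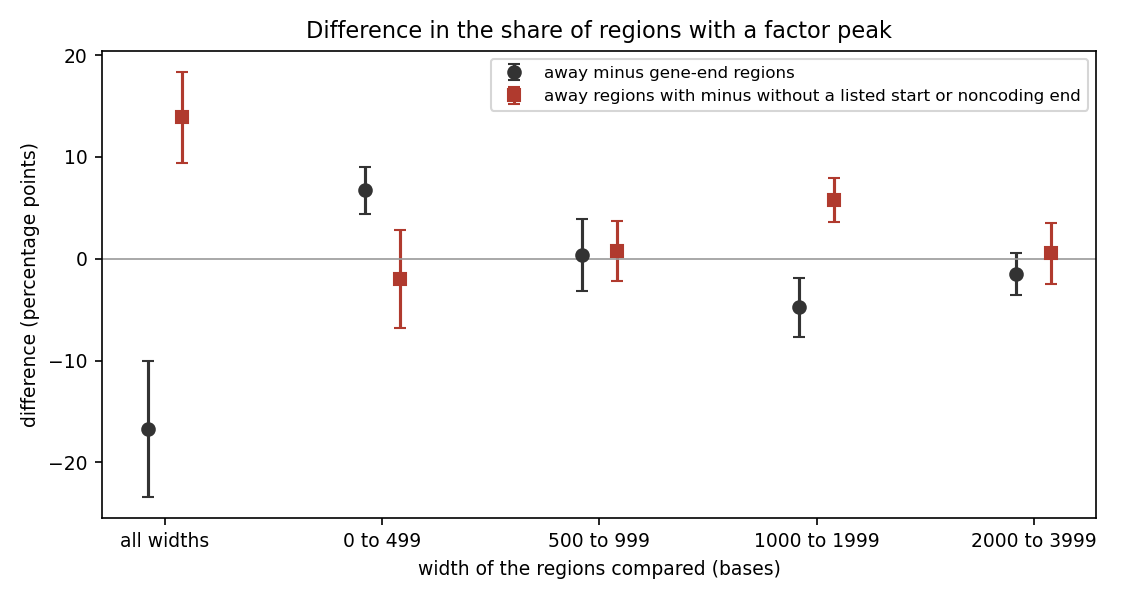
Difference in the share of regions with a factor peak, in percentage points (y axis), over all widths and in 4 classes of region width in bases (x axis); points are means over 6 factor libraries and bars 1 SD. The difference of -16.7 between away and gene-end regions is 6.71, 0.409, -4.77 and -1.53 within the classes, and that of 13.9 between away regions with and without a listed start or noncoding end is -1.97, 0.749, 5.77 and 0.530.

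Width and factor overlap went together among the members. All 3 factors overlapped 15.4% of the 1430 members under 500 bases, 28.0% of the 1184 from there to 1000, 50.8% of the 1184 from there to 2000 and 83.4% of the 506 wider ones. A longer region has more bases that a peak can touch, and with a window of 500 bases at each midpoint 28.0% of all members were over all 3. A listed start or noncoding end was within 1 kb of 20.4%, 34.0%, 57.1% and 70.6% in the same classes.

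The members with the highest factor peaks over all 3 factors were not those with the highest H3K4me3. Inside genes these were in Sertad2, Ccdc12, Aph1b and Myo1h. Sertad2, at a start 88811 bases inside the gene, had NKX2-1 at 19.8, 6.94 and 8.08, PRDM16 at 15.8 and 14.8 and PRDM3 at 15.8, with H3K4me3 of 20.2, 34.1 and 24.2. Aph1b, which encodes a gamma-secretase subunit, had NKX2-1 at 27.3, 4.07 and 10.4 and H3K4me3 of 22.6, 24.0 and 20.8. Myo1h, at the CpG-poor start printed above, had 18.9, 6.47 and 6.35 for NKX2-1 and 21.8 and 8.16 for PRDM16, while H3K4me3 was 8.03, 7.91 and 6.80, below the members' medians of 11.4, 13.1 and 13.1. Outside genes they were nearest to Tamm41, Arhgap12, Slc1a3 and Vmn2r87. The first, of 275 bases, had H3K4me3 of 6.43 and 6.08 with no peak in replicate 3, beside factor peaks of 4.88 to 20.8 in all 6 libraries, and the last 22.2, 41.4 and 26.1 beside 6.51 to 22.4.

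At the limits of the choice values ran on. The widest members were at n-THgtg4 (3973 bases) and LOC115486533 (3974 bases; 24.1, 66.3 and 52.9), and just over the width limit were a stretch in Foxp1 (4018 bases; 20.5, 35.3 and 35.7) and one of 4068 bases nearest to Ptprc (26.1, 34.2 and 26.9). Just over 1 kb from a gene end were members in Zfp57 (1001 bases; 13.6, 28.0 and 17.9) and Prkar1a (1002 bases; 22, 68.1 and 51.5). Just inside that distance were regions at Rpl22 (1000 bases; 16.6, 69.3 and 41.3) and L3mbtl4 (nearer by 1 base; 8.57 and 6.06, no peak in replicate 3), which are no members.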

How the data were processed

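CUT&RUN peak lists of 3 H3K4me3, 3 NKX2-1, 2 PRDM16 and 1 PRDM3 libraries were used; the 3 IgG samples were not analysed here. Per the submitters' processing notes, reads were handled with Trimmomatic, Bowtie2, MACS2 and HOMER on mm10, with no versions given. The deposited peak lists hold 1 library each and give per peak a score, the fold enrichment over background (a ratio) and −log10 p and −log10 q values; the authors' thresholds and control use are not given in the sources used here. Read depth is unknown, and intervals cover counting error only.

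Regions were stretches covered in at least 2 of 3 lists of a target (both PRDM16 lists, the 1 PRDM3 list) on chromosomes 1 to 19. Gene ends, listed starts and sequences came from RefSeq tables of GRCm38.p6, which shares mm10's coordinates; the starts are not complete, and exons were not used. Overlap means at least 1 shared base, and a value at a region is the highest fold enrichment among that library's peaks touching it. The members and gene lists were chosen with earlier results of these data known, and the comparison by listed starts, the alternatives with members over 2 kb from a gene-end region, the width classes for every comparison but that with gene-end regions, and some named regions (those with 5 or more per gene, and the highest without a listed start, at microRNA genes and at tRNA genes) were added after seeing the data. Named genes were the 8 members per class (noncoding, inside, outside) highest by mean H3K4me3 rank, the 4 inside and 4 outside genes highest by mean factor rank among those over all 3 factors, up to 4 members a list, and those at the limits; other list members (such as Mecom, Chd9 and Abca3) were chosen after their values were seen.

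Shares of regions with a factor peak were compared within each of the 6 factor libraries, and the 6 differences tested with a two-sided exact sign-flip permutation test (smallest p 0.03125), with Benjamini-Hochberg adjustment. The library is the unit, and the libraries of 1 target are not separate targets. The counting code was tested on simulated intervals. Alternatives were other thresholds, windows, overlaps and widths, and each library left out. Python 3.11.15, numpy 2.4.6, pandas 2.3.3, scipy 1.17.1, statsmodels 0.14.6 and matplotlib 3.10.9 were used.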

Additional observations from a re-analysis of the deposited data

How the results depend on the processing

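Shares moved with the choice of members. With H3K4me3 in all 3 libraries, 65.0% of members were inside genes, 21.0% had a noncoding end, and 55.1%, 68.0%, 64.8% and 40.9% were over NKX2-1, PRDM16, PRDM3 and all 3. Measured from midpoints these were 67.8%, 15.8%, 55.1%, 68.5%, 64.9% and 42.3%. With stretches within 500 bases joined, 60.3% were inside genes and 52.6%, 68.6%, 64.02% and 39.2% over the factors. Over 2 kb from a gene-end H3K4me3 region, a choice made after seeing the data, the values were 59.5%, 20.9%, 51.9%, 67.8%, 63.1% and 38.6%. With no coding end within 5 kb there were 2816 members, 55.2% inside genes, 21.4% with a noncoding end, 67.4% over PRDM16 and 62.5% over PRDM3. A noncoding end within 5 kb was found for 31.3%, and H3K4me3 peaks of −log10 q at least 5 gave 51.1% over NKX2-1.

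Factor choices moved them further. For NKX2-1, PRDM16, PRDM3 and all 3, the shares were 3.53%, 23.8%, 14.3% and 1.60% with −log10 q at least 5, 31.2%, 32.7%, 40.2% and 15.7% when each factor list was cut to its 20000 strongest peaks, 44.6%, 58.8%, 55.5% and 28.0% in 500-base windows, and 47.0%, 61.5%, 56.7% and 33.5% with 50% overlap. Leaving out single libraries gave 22.7% to 55.2%, 65.3% to 81.7%, 61.6% to 64.7% and 18.7% to 41.0%, and for the shares inside genes and with a noncoding end 63.2% to 64.6% and 19.8% to 20.8%. Without PRDM16 replicate 1 or replicate 2, a PRDM16 region was any peak of the other library, a looser rule that gave 73.5% and 81.7%.

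The difference between members and gene-end regions (-16.7 percentage points) was -12.6 and -24.9 in the libraries whose peak names carry a C and an H tag, 6.71, 0.409 and -1.53 under 500, from 500 to under 1000 and from 2000 bases up, and -17.9 to -14.3 with single libraries left out. That by listed start or noncoding end (13.9) was 11.2 and 19.4 by tag, -1.97, 0.749 and 0.530 in the same width classes, and 12.6 to 14.8. That by noncoding end (7.15) was 6.41 and 8.62, 1.79, -0.383 and 0.389, 6.53 to 7.498, and 4.14 with −log10 q at least 5 (exact permutation p = 0.0625). Inside against outside genes (1.64) changed sign with −log10 q at least 5 (-0.262), in 500-base windows (-1.45), in the C libraries (-1.12) and in the 4 width classes (-9.66, -2.96, -0.895 and -0.189). It passed the threshold with no coding end within 5 kb (4.61), from midpoints (7.04), with joined stretches (5.21), over 2 kb from a gene-end region (5.55) and, within a range of 0.236 to 3.76 with single libraries left out, at its highest, without H3K4me3 replicate 1. With 5 libraries or fewer no p under 0.05 can be reached. The causes were not tested.

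The tests pair the shares within each library. By replicate number, no paired analysis was possible because equal numbers of different targets form no comparison. Read depth, which limits which peaks are listed, is unknown.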
